A study of Rattus norvegicus with 7 samples.

Results

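Matrix metalloproteases, the plasminogen activation system and the inhibitors that act on them were followed across 7 arrays of NRK-52E cells, an established epithelial line from rat kidney. The gene list named 32 genes: 12 matrix metalloproteases, the 4 tissue inhibitors of metalloproteases and Reck, 6 genes of the plasminogen system and secreted serpins, 5 ADAMs, and 4 astacin, HtrA and convertase genes. Every probe set annotated to a listed symbol was taken, whatever its values. This gave 44 of the 31042 probe sets that are not controls, and 31 of the 32 genes. No probe set was annotated to Adam12.

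The knockdown cultures had been transfected with siRNA 3488 (2 arrays) or siRNA 2600 (2 arrays), both directed at Adamts16, a gene for a secreted metalloprotease with thrombospondin repeats. The control cultures carried a scrambled siRNA (3 arrays). All cells, controls included, were given 100 pmol of siRNA per ml by lipofection, having been seeded at 20% confluence 6 h earlier in medium with 10% serum. RNA was taken 48 h after transfection, and each array held RNA of a culture described as independent. The antisense strands, without their overhangs, are shown because the 2 siRNAs gave unlike responses in these genes. Each is written 5′ to 3′ with its seed, bases 2 to 8, in capitals.
siRNA 3488 antisense: tTTCCGGAgacgtacttct
siRNA 2600 antisense: tTGCGCACagaaatatagg
scrambled antisense: aTTACCGAgcacattggagg
The 3 seeds differ from one another.

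Matrix metalloproteases are zinc enzymes that cut collagens, laminins and other matrix proteins. They are made as inactive precursors, and furin-like convertases, plasmin and other metalloproteases remove the propeptide. Tissue inhibitors of metalloproteases occupy the active site, while plasminogen activators release plasmin and serpins trap the activators and plasmin. In kidney tubules these enzymes remodel the basement membrane and the interstitial matrix. The arrays report mRNA only, so enzyme activity was not measured, and in these bulk cultures fewer cells of a type and less RNA per cell cannot be told apart.

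The target itself could not be read. The Adamts16 probe set 1385969_at gave signals of 12.1 and 40.4 in siRNA 3488 cultures and 21.4 and 2.42 in siRNA 2600 cultures, against 8.68, 7.18 and 18.9 in scrambled control cultures, all below the level of signal 68.2 that separates tested from untested probe sets. With no filter its log2 change was 1.06 ± 1.04 for siRNA 3488 and -0.56 ± 1.04 for siRNA 2600 (adjusted p = 0.612 and adjusted p = 0.903). Of 11 epithelial marker genes on the array 4 passed the signal filter, and their 6 tested probe sets had no call and a median log2 change of -0.13 with siRNA 3488. The summed epithelial signal was 13261 to 13979 in siRNA 3488 cultures, 12449 to 12745 in siRNA 2600 cultures and 12526 to 13496 in control cultures. Krt8 was bright at a mean of 6781, 5921 and 5963 in the siRNA 3488, siRNA 2600 and control cultures, whereas Cdh1, Epcam, Krt18 and the tubule cadherin Cdh16 were below the filter. Among the other tested epithelial markers, Krt19 also had a higher mean with siRNA 3488 than in controls. Tjp1 and Ocln had lower means with siRNA 3488 at each of their probe sets. Of 12 fibroblast markers 7 passed, among them Col3a1 at means of 26451, 19749 and 19397. The summed fibroblast signal was 61575 to 68020 in siRNA 3488 cultures, 49872 to 54632 in siRNA 2600 cultures and 47463 to 51123 in control cultures. With siRNA 3488, 4 of 9 tested fibroblast probe sets, from 3 genes, were called higher, against 6.89% of all probe sets. Col3a1 and Mfap5 made up most of the sum. Their log2 changes of 0.44 and 0.48 lay near the median of 0.47 for tested probe sets of similar signal. The called Col1a1 probe sets changed by 0.41 and 0.44, where such medians were -0.04 and 0.01. Postn had a lower mean with siRNA 3488 than in controls (3850 against 4201). Of 7 macrophage markers 4 passed (sums 6419.8 to 6743, 6547 to 6641 and 6134 to 6630.2 in the same order of groups), and of 5 endothelial markers 1 passed (345 to 346, 278 to 372 and 302 to 382). The macrophage marker Cd68 read 365 and 363 in siRNA 3488 cultures and 192 and 225 in siRNA 2600 cultures, against 208, 236 and 246 in scrambled control cultures, and was called higher with siRNA 3488 by 0.67 ± 0.14 (adjusted p = 0.0141). The 3 other tested macrophage probe sets were not called. In the same order of groups their means were 5956, 6150 and 5869 for Cd14, 89.2, 88.5 and 71.2 for Lyz2, and 88.0, 77.5 and 103 for Aif1. Cd14 thus made up most of the macrophage sum. Of 9 proximal tubule markers 5 passed (5652 to 5655, 5091 to 5316 and 4909.8 to 5082). None of these markers was listed at 0. The ratio of the 3′ to the 5′ beta-actin probe set was 1.94 to 1.96 with siRNA 3488, 1.81 to 1.83 with siRNA 2600 and 1.74 to 1.79 in controls. The part of these differences in the results was not tested.

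NRK-52E cells carried a narrow set of these transcripts at high level. Timp1 and the brighter Timp2 probe set gave signals of 9914 to 16960.4 and 13464 to 19989 over the 7 arrays, Plat 6067 to 7700.2, Serpinf1 6092 to 7744 and the brighter Mmp14 probe set 5296 to 7681. Mmp3, Mmp7, Mmp9, Mmp10, Mmp12, Mmp13, Timp4 and Plau had no probe set that passed the filter. In all, 31 probe sets of 23 genes were tested and 13 probe sets were not. Signals of different probe sets depend on their own probes, so their order says nothing sure about transcript abundance.

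**Figure D1:**
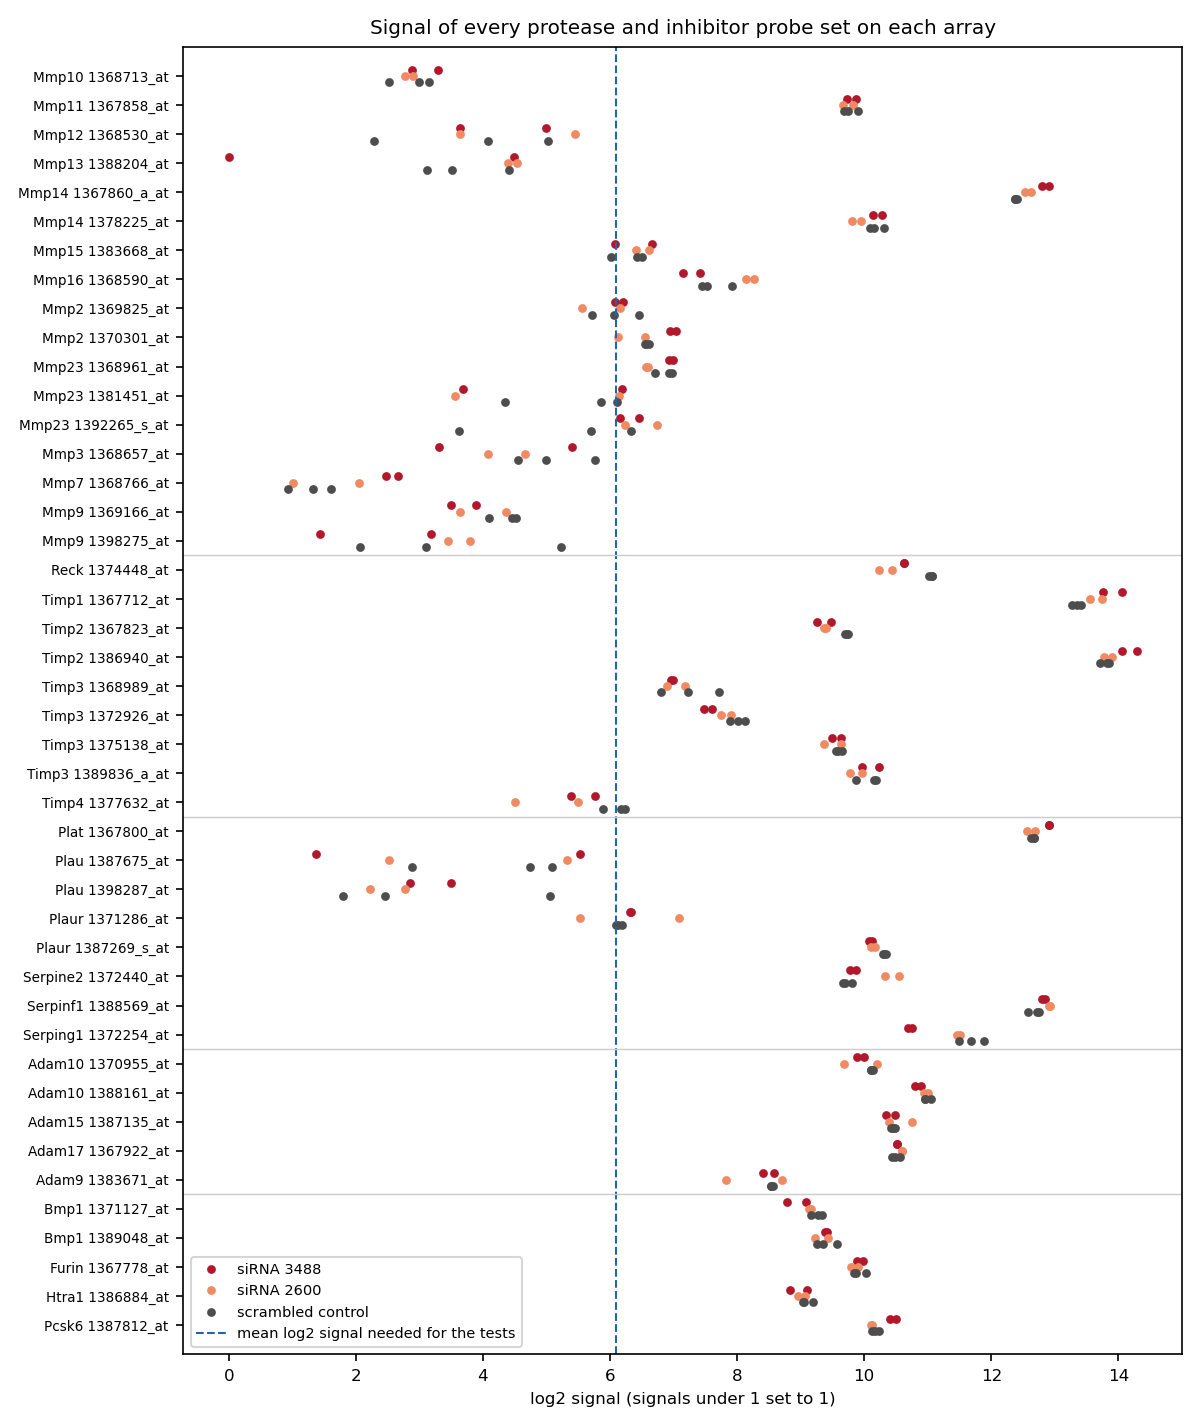
Log2 signal of all 44 probe sets on each array (1 point per array; siRNA 3488 uppermost in each row, then siRNA 2600, then scrambled control), with grey lines between the roles. The dashed line marks the mean log2 signal of 6.09 (signal 68.2) needed for the tests, which 13 probe sets did not reach, and the brightest points are those of Timp1 and Timp2.

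The low group held the secreted enzymes that are well known for induction by cytokines. Mmp7, or matrilysin, read 1.91 to 6.36 over the 7 arrays, and Mmp10 5.74 to 9.78. Mmp3, or stromelysin-1, read 9.86 to 54.6, the macrophage elastase Mmp12 4.87 to 43.6, and the collagenase Mmp13 0.568 to 23.2. Mmp7 was highest in the siRNA 3488 cultures, at 6.36 and 5.53, but was not called against the control in a fit with no filter (adjusted p = 0.352). Signals this low do not let an order between groups be relied on. In the GRCr8 gene table Mmp3, Mmp7, Mmp10, Mmp12 and Mmp13 lie on 1 chromosome, in a stretch of 10 protein-coding genes that are all metalloproteases of this family. The gelatinase Mmp9 read 11.3 to 22.9 and 2.7 to 37.7 at its 2 probe sets. Plau, the urokinase that activates plasminogen, read 46.3 and 2.59 in siRNA 3488 cultures and 5.73 and 39.98 in siRNA 2600 cultures, against 26.8, 34 and 7.37 in scrambled control cultures at 1387675_at, and 3.47 to 33.4 over the 7 arrays at its other probe set.

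Against the scrambled control, siRNA 3488 changed 8 of the 31 tested probe sets, 5 higher and 3 lower, from 7 genes. That is 25.8% of these probe sets, against 15.6% of the 18625 probe sets tested over the whole array (6.89% higher and 8.74% lower). This background was higher among brighter probe sets. In the upper 40% by signal 9 of 24 members were called, against 23.4% of all. With the brightest probe set of each gene it was 8 of 23, against 19.9% of all. siRNA 2600 changed 2 of 31, 1 higher and 1 lower, where the share over the whole array was 1.03% (0.548% higher and 0.483% lower). Taking both siRNAs as 1 group of 4 arrays, 0 of 31 were called by limma, 9 had an unadjusted p under 0.05 (17.8% of all probe sets did), and 0.145% of all probe sets were called. A call here is a Benjamini-Hochberg adjusted limma p under 0.05 over all 18625 probe sets. The median log2 change of the tested members was 0.01 for siRNA 3488, -0.07 for siRNA 2600 and -0.03 for both, beside -0.06, -0.02 and -0.05 over all probe sets. The arrays of the groups did not overlap for 17 members with siRNA 3488 (54.8%, against 50.3% of all probe sets) and for 11 with siRNA 2600 (35.5%, against 34%). For both siRNAs as 1 group the number was 6 (19.4%, against 17.7%), so these shares are close to the background. These comparisons share the 3 control arrays. Single arrays moved the counts: with siRNA 3488 it was 3 without siRNA 3488 replicate 2 and 4, 5 and 5 without control replicates 1, 2 and 3. Over the whole array 2.54%, 5.26%, 7.17% and 9.39% of probe sets were called in these settings. With siRNA 2600 it was 1 without control replicate 2 (0.134% over the whole array), and for both siRNAs as 1 group it was 5 without siRNA 2600 replicate 1 (7% over the whole array).

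**Figure D2:**
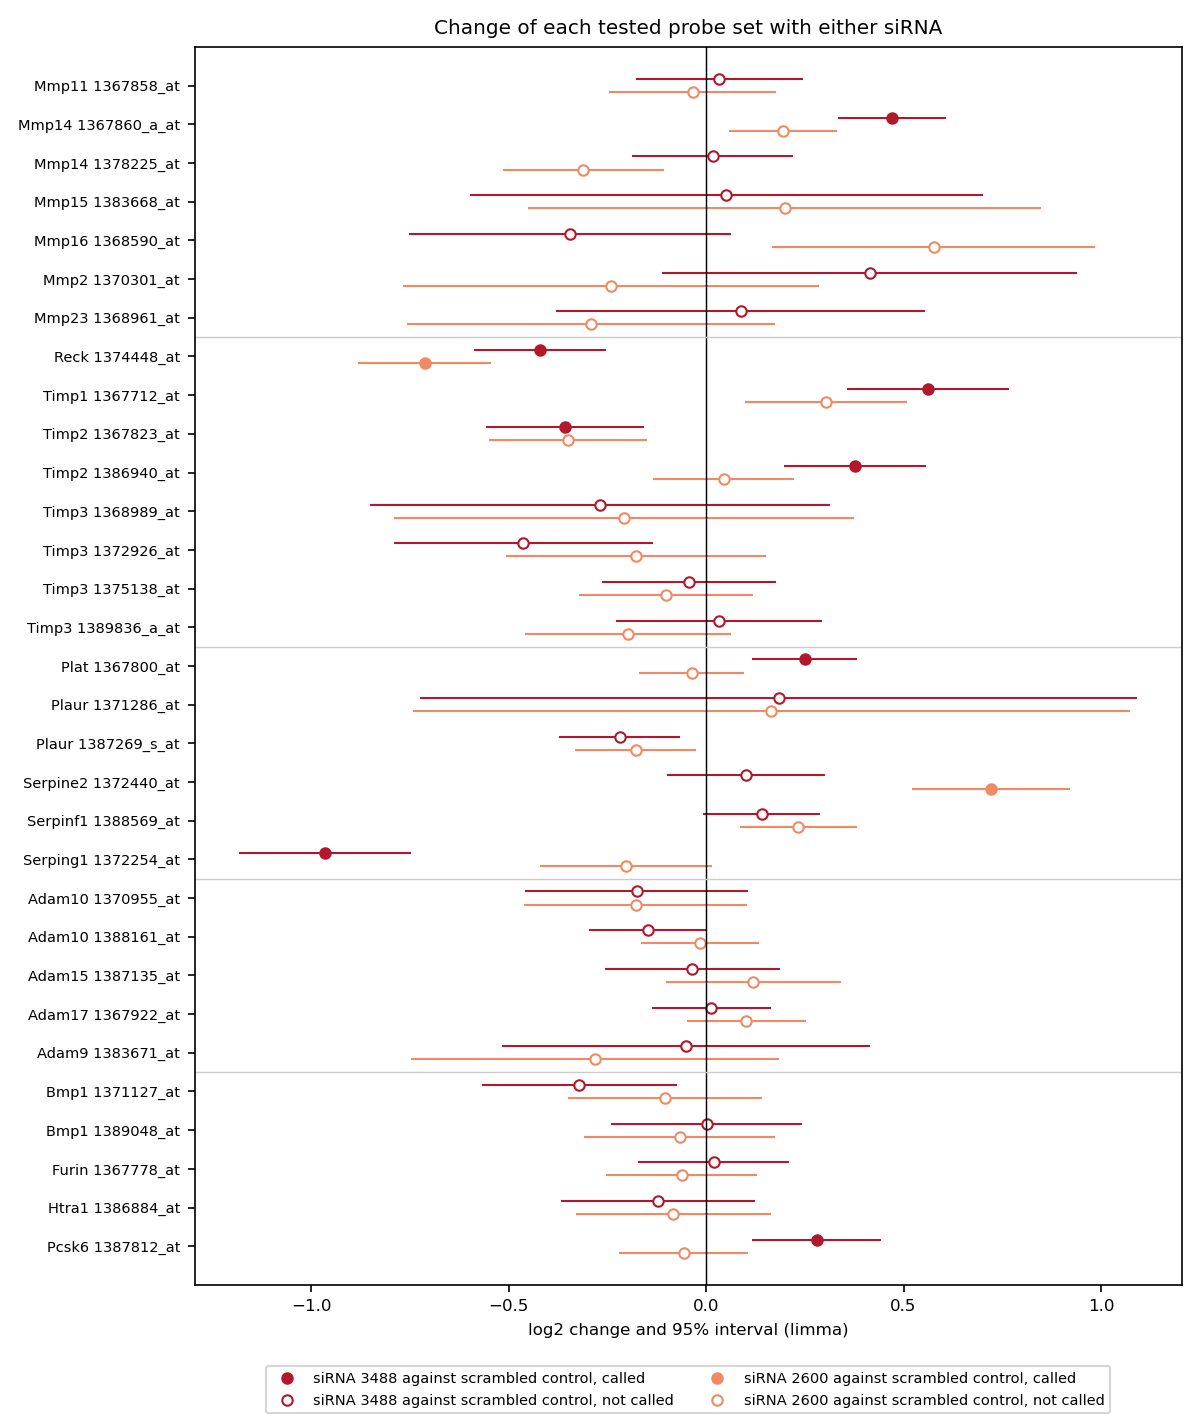
Log2 change of every tested probe set for siRNA 3488 and siRNA 2600 against the scrambled control, with 95% intervals not adjusted over probe sets and grey lines between the roles; filled points are called at adjusted p under 0.05. Timp1, Timp2, Mmp14, Plat and Pcsk6 are filled on the higher side for siRNA 3488, Serping1, Reck and the dimmer Timp2 probe set on the lower side, and Reck is filled for both siRNAs.

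Tissue inhibitors and Reck held the most calls of any role with siRNA 3488, with 4 of 8 tested probe sets called, 2 higher and 2 lower. That is 50%, against 15.6% of all probe sets. These calls came from 3 genes, since both Timp2 probe sets were called, in opposite directions. Both Timp2 calls were lost under quantile normalization and cyclic loess. Reck encodes a membrane-anchored glycoprotein that restrains Mmp2, Mmp9 and Mmp14 at the cell surface. Reck probe set 1374448_at read 1587 and 1578 in siRNA 3488 cultures and 1392 and 1201 in siRNA 2600 cultures, against 2136, 2143 and 2077 in scrambled control cultures. All 4 siRNA arrays lay below all 3 control arrays. Reck fell by 0.42 ± 0.08 on the log2 scale with siRNA 3488 (adjusted p = 0.00763) and by 0.71 ± 0.08 with siRNA 2600 (adjusted p = 0.00486), which is 0.747 and 0.61 of the control level. No other member was called with each siRNA on its own. The 2-group fit gave -0.57 ± 0.10 (adjusted p = 0.0745), which misses the threshold. That value passed when both siRNAs were instead averaged from the 3-group fit (adjusted p = 0.00352). It also passed with 1 probe set per gene (adjusted p = 0.0392) and without siRNA 2600 replicate 1 (adjusted p = 0.0160). In these settings 7.4%, 0.309% and 7% of all probe sets were called, against 0.145% as reported. Under every other alternative no member was called for both siRNAs as 1 group. The siRNA 3488 call was lost without siRNA 3488 replicate 2 (log2 change -0.42, adjusted p = 0.061).

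The promoter of Reck is printed with that of Timp1 because these are the inhibitors with the opposite responses, and that of Serpine2 because it was the gene called higher with siRNA 2600. Each line gives the 250 bases before the gene's start from RefSeq on GRCr8, on the gene's strand and 5′ to 3′. Capitals mark matches, on either strand, to the letters TGANTCA or TGAGTAA (AP-1 and a variant), AGGAAG (Ets), GGGCGG (GC box), CCAAT or TATAAA. Overlapping matches run together.
Reck, chr5:62898467-62898716 (plus strand): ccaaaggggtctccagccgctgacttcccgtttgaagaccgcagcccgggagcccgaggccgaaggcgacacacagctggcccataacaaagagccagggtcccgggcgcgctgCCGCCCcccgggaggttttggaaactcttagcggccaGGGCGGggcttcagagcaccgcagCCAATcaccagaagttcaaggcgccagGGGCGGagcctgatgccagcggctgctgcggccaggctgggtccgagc
Timp1, chrX:3771123-3771372 (minus strand): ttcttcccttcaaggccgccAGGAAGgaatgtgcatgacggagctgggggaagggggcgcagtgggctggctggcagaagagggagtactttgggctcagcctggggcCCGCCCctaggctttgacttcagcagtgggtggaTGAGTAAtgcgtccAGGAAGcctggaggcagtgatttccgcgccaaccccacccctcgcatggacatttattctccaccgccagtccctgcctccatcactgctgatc
Serpine2, chr9:88637203-88637452 (minus strand): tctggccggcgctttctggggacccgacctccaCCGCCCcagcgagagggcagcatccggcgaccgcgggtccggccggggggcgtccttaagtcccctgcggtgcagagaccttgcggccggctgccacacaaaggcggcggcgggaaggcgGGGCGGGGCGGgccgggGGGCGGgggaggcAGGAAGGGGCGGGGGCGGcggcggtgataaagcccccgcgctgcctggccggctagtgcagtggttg
The Reck window held 3 GC boxes and 1 CCAAT box. The Timp1 window held the AP-1 variant 108 to 102 bases before the start, 2 Ets matches and 1 GC box. The Serpine2 window held 6 GC boxes and 1 Ets match. Of 33469 such windows, 2.38% held TGAGTAA, 6.34% TGANTCA, 29.5% AGGAAG, 30.5% GGGCGG, 34.0% CCAAT and 12.9% TATAAA. A match describes the letters of the window and does not show that a factor binds there. RefSeq windows were at hand for 23 of the genes, 5 of them among the 9 genes with a call.

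Timp1, a secreted inhibitor of most matrix metalloproteases, was among the brightest members. Its probe set 1367712_at read 13868 and 16960.4 in siRNA 3488 cultures and 12008 and 13701 in siRNA 2600 cultures, against 9914, 10434 and 10851 in scrambled control cultures. The groups did not overlap, with siRNA 3488 highest and the controls lowest, although the nearest arrays of the 2 siRNAs almost met. Timp1 rose with siRNA 3488 by 0.56 ± 0.09 on the log2 scale (adjusted p = 0.00602), or 1.48-fold. With siRNA 2600 the change was 0.30 ± 0.09 (adjusted p = 0.154). The 2 siRNAs differed by 0.26, with a 95% interval, not adjusted over probe sets, of 0.03 to 0.48 (adjusted p = 0.158).

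Timp2, which inhibits metalloproteases and also takes part in activating Mmp2 together with Mmp14, gave opposite results at its 2 probe sets. The brighter one, 1386940_at, read 17041 and 19989 in siRNA 3488 cultures and 14068 and 15274 in siRNA 2600 cultures, against 13464, 14466 and 14745 in scrambled control cultures. It was higher with siRNA 3488 by 0.38 ± 0.08 (adjusted p = 0.014). The dimmer one, 1367823_at, read 717 and 613 in siRNA 3488 cultures and 658 and 674 in siRNA 2600 cultures, against 833, 861 and 852 in scrambled control cultures, so that all 4 siRNA arrays lay below the controls. It was lower with siRNA 3488 by 0.36 ± 0.09 (adjusted p = 0.0259), and the change with siRNA 2600 was -0.35 ± 0.09 (adjusted p = 0.109). No single direction can therefore be given for Timp2. The brighter call was lost without siRNA 3488 replicate 2 or scrambled control replicate 1 (log2 change 0.26 to 0.34, adjusted p = 0.0606 to 0.0952), and the dimmer without siRNA 3488 replicate 2 or scrambled control replicates 1, 2 or 3 (log2 change -0.37 to -0.24, adjusted p = 0.068 to 0.191).

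Timp3, which binds to the matrix and also inhibits ADAMs, had 4 tested probe sets and none was called with siRNA 3488 or siRNA 2600. The largest shift with siRNA 3488 was at 1372926_at, which read 178 and 195 in siRNA 3488 cultures and 215 and 240.1 in siRNA 2600 cultures, against 279, 258 and 236 in scrambled control cultures. Its log2 change with siRNA 3488 was -0.46 ± 0.15 (adjusted p = 0.0601), and the other 3 probe sets lay between -0.27 and 0.03. Timp4 stayed near or below the filter at 41.9 and 54.2 in siRNA 3488 cultures and 22.8 and 44.9 in siRNA 2600 cultures, against 72.2, 59.1 and 75.5 in scrambled control cultures. Its 4 siRNA arrays lay below its 3 control arrays, but in a fit with no filter neither siRNA reached the threshold (adjusted p = 0.553 for siRNA 3488 and adjusted p = 0.393 for siRNA 2600).

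**Figure D3:**
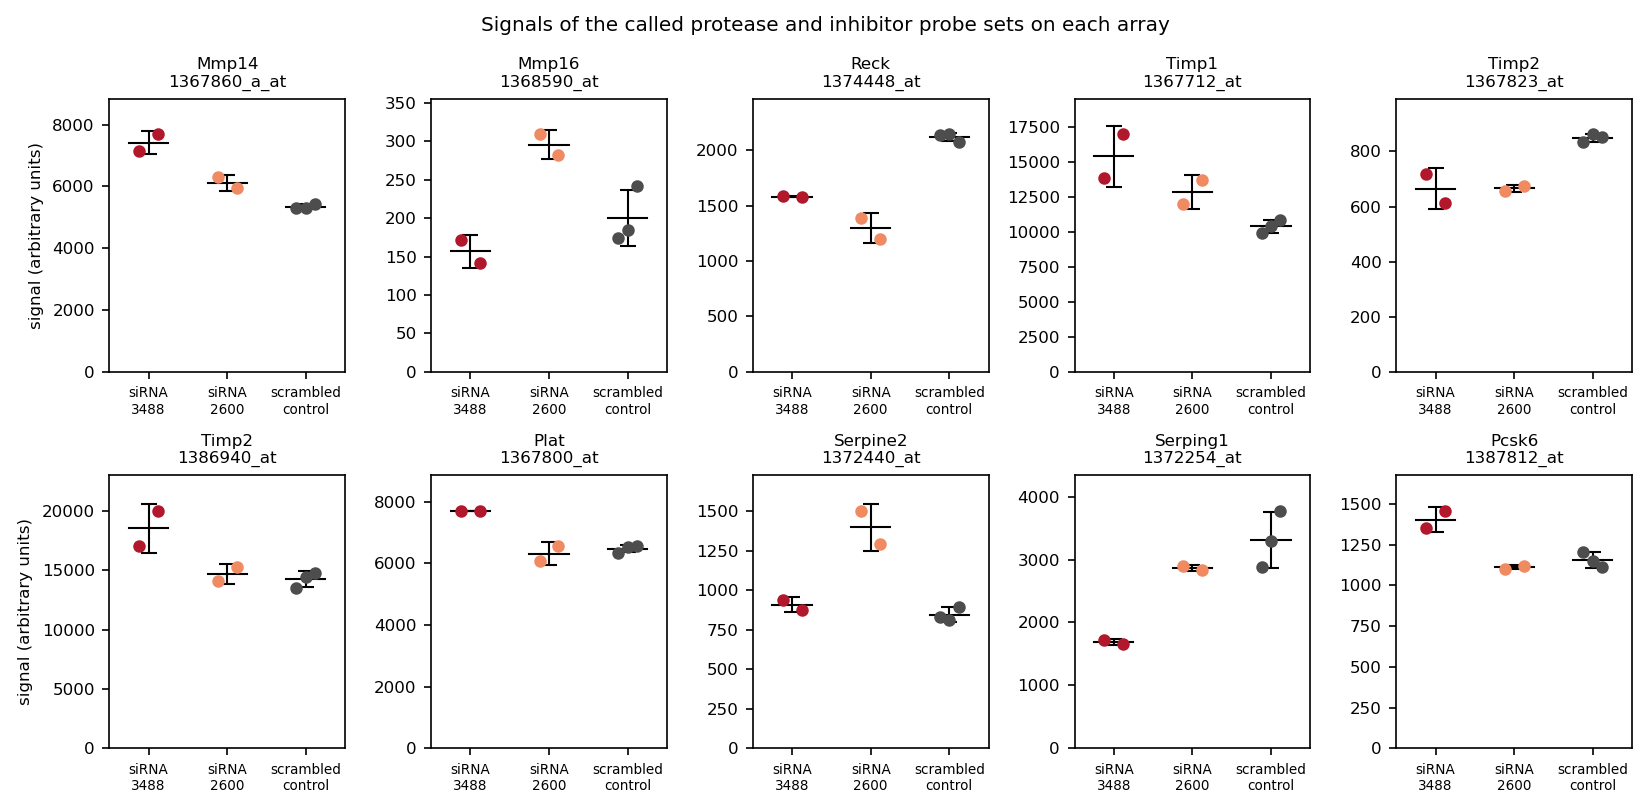
Signal per array (arbitrary units) of each probe set called in at least 1 comparison, with siRNA 3488 left, siRNA 2600 in the middle and scrambled control right; horizontal lines are group means and error bars their SD. Reck lies below the controls in all 4 siRNA cultures, Serping1 is low in the 2 siRNA 3488 cultures alone, and Serpine2 is high in the 2 siRNA 2600 cultures alone.

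Of 7 tested matrix metalloprotease probe sets, 1 was called against the control, that of Mmp14 with siRNA 3488 (14.3%, against 15.6% of all probe sets). Mmp14 is a membrane-anchored collagenase that also activates the Mmp2 precursor. Its probe set 1367860_a_at read 7146 and 7681 in siRNA 3488 cultures and 6303 and 5941 in siRNA 2600 cultures, against 5301, 5296 and 5447 in scrambled control cultures. The groups did not overlap, with siRNA 3488 highest and the controls lowest. The log2 change was 0.47 ± 0.06 with siRNA 3488 (adjusted p = 0.00298, 1.39-fold) and 0.19 ± 0.06 with siRNA 2600 (adjusted p = 0.168). This siRNA 3488 call was kept under all 18 alternatives. The other Mmp14 probe set, 1378225_at, did not follow it. It read 1124 and 1242 in siRNA 3488 cultures and 897 and 989 in siRNA 2600 cultures, against 1140.0, 1094 and 1277 in scrambled control cultures, with changes of 0.02 ± 0.09 (adjusted p = 0.923) and -0.31 ± 0.09 (adjusted p = 0.144). The rise of Mmp14 thus rests on 1 of its 2 probe sets.

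Mmp2, the gelatinase that cleaves denatured collagen and type IV collagen, was dim. Its tested probe set 1370301_at read 132 and 123 in siRNA 3488 cultures and 69.5 and 94 in siRNA 2600 cultures, against 94.8, 97.8 and 94 in scrambled control cultures, and no comparison called it (log2 change 0.41 ± 0.24 with siRNA 3488, adjusted p = 0.261, and -0.24 ± 0.24 with siRNA 2600, adjusted p = 0.688). Its other probe set, 1369825_at, was untested at 47.3 to 88.1. Mmp16, another membrane-anchored enzyme, read 172 and 142 in siRNA 3488 cultures and 309 and 282 in siRNA 2600 cultures, against 174, 185 and 241 in scrambled control cultures. Neither siRNA differed from the control by the test (-0.34 ± 0.18, adjusted p = 0.229, with siRNA 3488 and 0.58 ± 0.18, adjusted p = 0.173, with siRNA 2600). Mmp11, Mmp15 and Mmp23 were tested and had no call with either siRNA against the control.

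In the plasminogen system and among the serpins, 6 probe sets of 5 genes were tested, and 3 genes were called with 1 siRNA or the other. The share called was 33.3% with siRNA 3488 and 16.7% with siRNA 2600, against 15.6% and 1.03% of all probe sets. Serping1, the C1 inhibitor, which blocks complement C1 proteases, kallikrein and factor XII, showed the largest fall with siRNA 3488 among the 31 tested probe sets. It read 1729 and 1654 in siRNA 3488 cultures and 2901 and 2829.8 in siRNA 2600 cultures, against 2883, 3299.7 and 3772 in scrambled control cultures. The siRNA 3488 cultures stood far below all others. The fall with siRNA 3488 was 0.96 ± 0.10 on the log2 scale (adjusted p = 0.00147), to 0.513 of the control level, and it was kept under all 18 alternatives. With siRNA 2600 the change was -0.20 ± 0.10 (adjusted p = 0.367).

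Serpine2, or protease nexin-1, inhibits thrombin, urokinase and plasmin near the cell surface. It read 939.7 and 873 in siRNA 3488 cultures and 1500.0 and 1292 in siRNA 2600 cultures, against 828, 810.3 and 896 in scrambled control cultures. It rose with siRNA 2600 by 0.72 ± 0.09 (adjusted p = 0.0073), or 1.65-fold, while the change with siRNA 3488 was 0.10 ± 0.09 (adjusted p = 0.475). Both siRNA 2600 arrays lay above every other array. The siRNA 2600 call was lost without scrambled control replicate 2 (log2 change 0.69, adjusted p = 0.0533).

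Plat, the tissue plasminogen activator, read 7698 and 7700.2 in siRNA 3488 cultures and 6067 and 6575 in siRNA 2600 cultures, against 6337, 6544 and 6551 in scrambled control cultures. It was higher with siRNA 3488 by 0.25 ± 0.06 (adjusted p = 0.0215) and changed by -0.04 ± 0.06 with siRNA 2600 (adjusted p = 0.824). The Plat call was lost without siRNA 3488 replicates 1 or 2 or scrambled control replicates 1, 2 or 3 (log2 change 0.23 to 0.26, adjusted p = 0.0511 to 0.0907). Plaur, the urokinase receptor, read, at its brighter probe set, 1115 and 1082 in siRNA 3488 cultures and 1106 and 1155 in siRNA 2600 cultures, against 1277, 1254 and 1304 in scrambled control cultures. All 4 siRNA arrays lay below the controls, yet neither siRNA reached the threshold (-0.22 ± 0.07, adjusted p = 0.0572, with siRNA 3488 and -0.18 ± 0.07, adjusted p = 0.26, with siRNA 2600). Serpinf1, the pigment epithelium-derived factor, a serpin that does not inhibit proteases, read 7361 and 7117 in siRNA 3488 cultures and 7695 and 7744 in siRNA 2600 cultures, against 6092, 6901 and 6725 in scrambled control cultures. It was not called with siRNA 3488 (0.14 ± 0.07, adjusted p = 0.177) or siRNA 2600 (0.23 ± 0.07, adjusted p = 0.136).

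The ADAMs, membrane-anchored enzymes that shed ectodomains of growth factors and receptors, had no call among 5 tested probe sets in any comparison. Over the whole array 15.6% of probe sets were called with siRNA 3488 and 1.03% with siRNA 2600. Adam17, the sheddase of tumour necrosis factor, read 1458 and 1458 in siRNA 3488 cultures and 1546 and 1554 in siRNA 2600 cultures, against 1515, 1432 and 1390.3 in scrambled control cultures. Its 95% interval was -0.14 to 0.16 for siRNA 3488 and -0.05 to 0.25 for siRNA 2600. Across Adam9, Adam10, Adam15 and Adam17 the log2 changes with siRNA 3488 ran from -0.18 to 0.01, with 0.16 as the lowest adjusted p.

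Of the astacin, HtrA and convertase genes, Pcsk6 was called. With siRNA 3488 this was 1 of 5 tested probe sets (20%, against 15.6% of all probe sets). Pcsk6 encodes a proprotein convertase of the furin family, bound to the matrix, that cuts precursors of growth factors and proteases. Pcsk6 read 1350.3 and 1456 in siRNA 3488 cultures and 1102 and 1118 in siRNA 2600 cultures, against 1205, 1149 and 1111 in scrambled control cultures. It was higher with siRNA 3488 by 0.28 ± 0.07 (adjusted p = 0.0301) and changed by -0.06 ± 0.07 with siRNA 2600 (adjusted p = 0.769). The Pcsk6 call was lost without siRNA 3488 replicate 2 or scrambled control replicates 1, 2 or 3 (log2 change 0.23 to 0.31, adjusted p = 0.064 to 0.191). Furin, the serine protease Htra1 and both probe sets of Bmp1, the procollagen C-proteinase, were not called with either siRNA. For Bmp1 1371127_at the change with siRNA 3488 was -0.32 ± 0.11 (adjusted p = 0.076).

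Changes with siRNA 3488 moved with signal strength over the whole array, which touches the brightest members. The 621 brightest probe sets, 2% of the array, lay at 0.32 (median log2 change) for siRNA 3488, but at 0.06 for siRNA 2600. The 18 hybridisation-control probe sets, which report transcripts added to the sample and not made by the cells, had medians of 0.52 and 0.03. Among probe sets with a mean log2 signal of 12.5 to 13, where Mmp14 (12.57) and Plat (12.72) lie, the median of 261 was 0.22. From 13.5 to 14, where Timp1 (13.59) and the brighter Timp2 probe set (13.92) lie, the median of 103 was 0.40. Plat and the brighter Timp2 probe set thus stood at 0.25 and 0.38 beside such medians, and Timp1 and Mmp14 at 0.56 and 0.47. Reck (10.72) and Serping1 (11.35) lie where medians were -0.04 and 0.01.

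**Figure D4:**
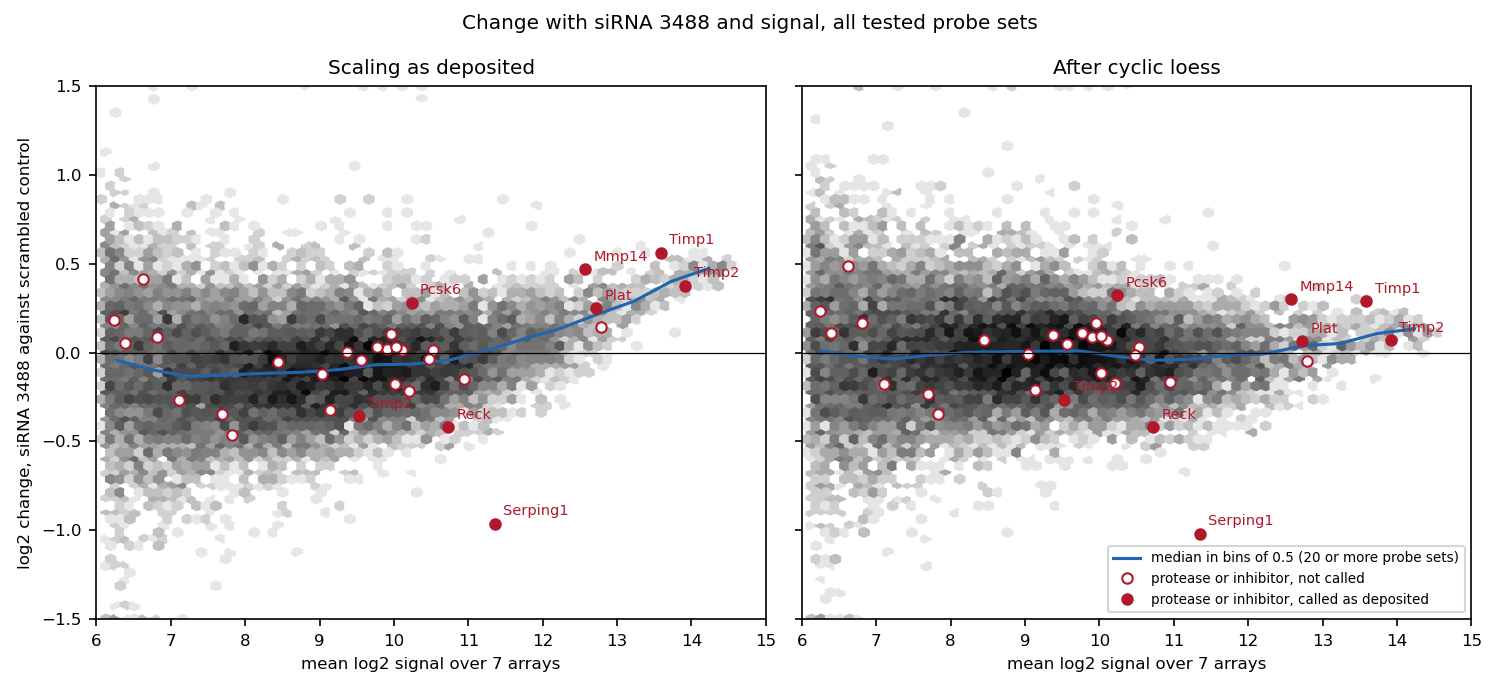
Log2 change for siRNA 3488 against the scrambled control over mean log2 signal, as deposited (left) and after cyclic loess (right), for all tested probe sets (grey hexagons, darker where more lie), with the median per bin of signal (line) and called members named. On the left the median rises to 0.40 in the bin from 13.5 to 14, where Timp2 lies near the line and Timp1 above it, while Serping1 and Reck lie below it.

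Cyclic loess and quantile normalization, which act on this dependence, moved the 4 bright members (Timp1, the brighter Timp2 probe set, Mmp14 and Plat) further than the other 4 called probe sets. Cyclic loess lowered the bin medians without bringing them to 0: they were then 0.04 from 12.5 to 13 and 0.11 from 13.5 to 14. After cyclic loess, the siRNA 3488 change of Timp1 was 0.29 (adjusted p = 0.0199) and that of Mmp14 0.30 (adjusted p = 0.00866), and both calls were kept. Serping1 at -1.02 (adjusted p = 0.0014), Reck at -0.42 (adjusted p = 0.00891) and Pcsk6 at 0.32 (adjusted p = 0.0254) hardly moved. Plat was no longer called after cyclic loess, at 0.07 (adjusted p = 0.413). The brighter Timp2 probe set was at 0.07 (adjusted p = 0.343), and after quantile normalization its direction turned, to -0.05 (adjusted p = 0.27). The dimmer Timp2 probe set lost its call under quantile normalization, -0.30 (adjusted p = 0.0668), cyclic loess, -0.27 (adjusted p = 0.0858), and median centring, -0.26 (adjusted p = 0.111). Median centring, which shifts every probe set of an array alike, kept all 5 higher calls and left 1 of the 3 lower ones, since Reck was at -0.33 (adjusted p = 0.0515). For siRNA 2600, Reck and Serpine2 were called under all 3 scalings, and Timp1 was also called after quantile normalization, at 0.23 (adjusted p = 0.0414).

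**Figure D5:**
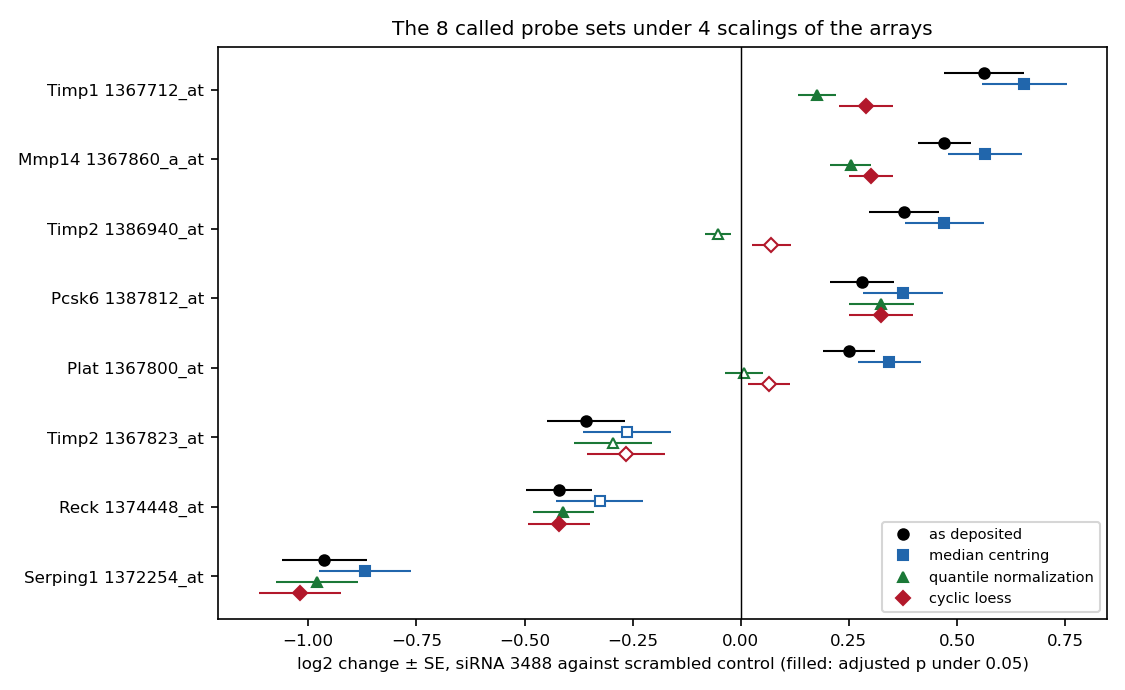
Log2 change for siRNA 3488 against the scrambled control, for each member called in that comparison, with the deposited scaling and after median centring, quantile normalization and cyclic loess; bars are standard errors and filled points are called. The brighter Timp2 probe set moves from 0.38 to below 0 under quantile normalization, while Serping1 stays near -1 throughout.

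The 2 siRNAs were also compared with each other. Of 31 probe sets 6 differed, 3 higher and 3 lower with siRNA 3488 (19.4%, against 6.01% over the whole array, 2.84% in the higher and 3.17% in the lower direction), each from a different gene. The arrays of the siRNAs did not overlap for 17 members (54.8%, against 49.6% of all probe sets). Serping1 was lower with siRNA 3488 than with siRNA 2600 by 0.76 ± 0.11 (adjusted p = 0.00956), and Serpine2 by 0.62 ± 0.10 (adjusted p = 0.0131). Both were called under the 3 other scalings. Mmp16 was lower with siRNA 3488 by 0.92 ± 0.20 (adjusted p = 0.0317), and after quantile normalization was at -0.86 (adjusted p = 0.0503). Mmp14 (0.28 ± 0.07, adjusted p = 0.0417), Plat (0.29 ± 0.07, adjusted p = 0.036) and Pcsk6 (0.34 ± 0.08, adjusted p = 0.0402) were higher with siRNA 3488. Mmp14 and Plat lost this call under each of the 3 other scalings, and Pcsk6 after median centring at 0.35 (adjusted p = 0.0773). After median centring the split was 0 higher and 3 lower, and after quantile normalization or cyclic loess 1 higher and 3 lower. After quantile normalization 1 of the 3 lower was a member outside these 6, since Mmp16 was not called. Over all probe sets median centring called 3.96% (381 higher and 357 lower). Quantile normalization called 3.08% (236 and 337) and cyclic loess 3.73% (318 and 377). Serping1 lost the call without siRNA 3488 replicate 2 (log2 change -0.73, adjusted p = 0.0616), Serpine2 without siRNA 3488 replicate 2 or siRNA 2600 replicate 1 (log2 change -0.57 to -0.51, adjusted p = 0.0622 to 0.0825), and Mmp16 without siRNA 3488 replicate 2, siRNA 2600 replicate 1 or scrambled control replicates 1 or 2 (log2 change -0.92 to -0.78, adjusted p = 0.0513 to 0.152). Pcsk6 lost it without any 1 of the 7 arrays, and Mmp14 and Plat without any of 6. The count was 0 without siRNA 3488 replicate 2, 1 without siRNA 2600 replicate 1, and 2, 2 and 3 without control replicates 1, 2 and 3. The shares of all probe sets called were then 0.51%, 0.574%, 2.38%, 1.97% and 2.78%. For Reck the 2 siRNAs differed by 0.29, with a 95% interval of 0.11 to 0.48 (adjusted p = 0.0663).

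Further genes of the same pathways were taken from a list of 75, of which 59 were on the array and 33 had a tested probe set. With siRNA 3488, 12 of their 41 tested probe sets were higher and 3 lower (36.6%, against the 15.6% of all probe sets). With siRNA 2600 1 was higher, and with both siRNAs as 1 group 0 were called by limma, where 1.03% and 0.145% of all probe sets were called. The surface plasminogen receptor pair S100a10 and Anxa2 was higher with siRNA 3488, at 0.47 ± 0.08 (adjusted p = 0.00572) and 0.43 ± 0.09 (adjusted p = 0.0119). Plgrkt, another plasminogen receptor, was higher with siRNA 3488 by 0.33 ± 0.09 (adjusted p = 0.0281) and with siRNA 2600 by 0.46 ± 0.09 (adjusted p = 0.0369). Cystatin genes Cstb and Cst3, whose products inhibit cathepsins, were higher with siRNA 3488 by 0.54 ± 0.08 (adjusted p = 0.00431) and 0.41 ± 0.07 (adjusted p = 0.00654). Ctsl, a cathepsin, was higher at both of its probe sets, by 0.43 ± 0.08 (adjusted p = 0.00833) and 0.24 ± 0.06 (adjusted p = 0.0256). Bsg, an inducer of metalloproteases, was higher by 0.43 ± 0.08 (adjusted p = 0.00872), and Pcolce, which enhances procollagen C-proteinase, by 0.27 ± 0.07 (adjusted p = 0.0221). Serpini1, or neuroserpin, an inhibitor of tissue plasminogen activator, was lower by 0.62 ± 0.08 at 1368256_at (adjusted p = 0.00268), but its brighter probe set 1387131_at was at 0.04 ± 0.07 (adjusted p = 0.735). Mmp24 was higher at 1368595_at, by 0.84 ± 0.24 (adjusted p = 0.0405), and lower at 1389833_at, by 0.31 ± 0.09 (adjusted p = 0.0367).

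Most of these higher genes are bright as well. After cyclic loess, chosen for them after their values were seen, 8 probe sets were called, 5 higher and 3 lower, and 7 of the 15 calls were kept. Over the whole array the share called fell as well, from 15.6% to 10.4%. Cstb, Cst3, S100a10, Plgrkt and 1 Mmp24 probe set stayed higher, and Serpini1 1368256_at and Serpinb6a (-0.31 ± 0.07 as deposited, adjusted p = 0.0215) stayed lower. The further lower call came with the scaling: the brighter Serpini1 probe set 1387131_at was then at -0.20 (adjusted p = 0.0304), in the direction of the other one. Anxa2 was then at 0.13 (adjusted p = 0.166), Bsg at 0.12 (adjusted p = 0.12) and the Ctsl probe sets at 0.14 (adjusted p = 0.0831) and 0.15 (adjusted p = 0.115). Pcolce was at -0.001 (adjusted p = 0.992), the lower Mmp24 probe set at -0.25 (adjusted p = 0.108), and Ctsb and F2r also lost their calls. Plg, plasminogen itself, stayed below the filter on every array, at 20.8 to 56.1.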

How the data were processed

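Each probe set and array has 1 deposited intensity on a linear scale, which the authors computed with GCOS 1.4, per the submitters' processing notes. Its settings for background and detection are not given here. Leaving out the lowest and highest 2% of probe sets, the mean of each array was 499.996 or 499.997, so the scaling was kept. Array medians ran from 126 to 139.6. Signals under 1 were set to 1, log2 was taken, and the 18625 probe sets in the upper 60% by signal (mean log2) entered limma 3.58.1 in R 4.3.3 (lmFit, eBayes with an intensity trend, Benjamini-Hochberg). Both siRNAs against the control was a 2-group fit, and the other comparisons were contrasts of a 3-group fit over all 7 arrays. Errors are standard errors for log2 changes. Only 7 arrays limit the precision. Genes came from the platform annotation: 20826 probe sets had 1 symbol, and all 44 member probe sets matched the GRCr8 table by Entrez identifier. Promoters are RefSeq's. Members, lists and tests were chosen with earlier results of these data known. Per-array signals are given for members called in any comparison, other probe sets of those genes, the brightest probe set of Mmp2, Mmp14, Timp1, Timp2, Plau, Plaur and Plat, and a few further members for their role. Those of the dimmer Plaur probe set are given as well. Of each related list, the called genes with the lowest p (at most 4) are examples. Same-numbered cultures were not treated as paired, since the cultures are described as independent. The correlations of their deviations from the group means ran from -0.0483 to 0.163, and those of differently numbered cultures from -0.191 to 0.191. With 2 arrays in each siRNA group the deviations mirror each other, so these values cannot decide on pairing. Alternatives changed the scaling, the filter, the offset, the trend, the probe set taken per gene, the block and the arrays used.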

Additional observations from a re-analysis of the deposited data

Results flagged for a closer look

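For 6 members the 2 siRNAs against Adamts16 differed by the limma contrast of siRNA 3488 minus siRNA 2600, at adjusted p under 0.05 over 18625 probe sets. On the log2 scale the difference was -0.92 for Mmp16, -0.76 for Serping1 and -0.62 for Serpine2, all lower with siRNA 3488. It was 0.34 for Pcsk6, 0.29 for Plat and 0.28 for Mmp14, all higher with siRNA 3488. Each group here is 2 cultures. Under the 18 alternatives the Serping1 difference was kept in 16 and the Serpine2 difference in 14. Pcsk6 was kept in 7 of 18, Mmp14 and Plat in 6 of 18 each, and Mmp16 in 9 of the 17 in which it could be computed.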

How the results depend on the processing

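Of 16 calls on 10 probe sets, Mmp14 and Serping1 with siRNA 3488 were kept under all 18 alternatives. Reck with siRNA 2600 and Timp1 with siRNA 3488 were lost only without the intensity trend, Serpine2 with siRNA 2600 also without control replicate 2. Without that trend 0 of all 18625 probe sets were called with siRNA 2600. Reck with siRNA 3488 was kept in 15, the brighter Timp2 probe set in 13, Pcsk6 in 12 and Plat in 10 of 18, and the dimmer Timp2 probe set in 8 of 17. The brighter Timp2 probe set reversed under quantile normalization, to -0.053. Dimmer genes such as Plau and Mmp9 have signals too low for a change to be read.

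Counts of members called moved as follows; the cause was not tested. With siRNA 3488 (8 as reported), quantile normalization and cyclic loess each gave 5, no intensity trend 2, and leaving out 1 array 3 to 9 (2.54% to 19.4% of all probe sets). With siRNA 2600 (2), no intensity trend gave 0 (0 of all 18625 probe sets) and leaving out 1 array 1 to 2 (0.134% to 1.24% of all). For siRNA 3488 against siRNA 2600 (6), median centring gave 3, no filter 2, no intensity trend 0, a fit of the 4 siRNA arrays alone 1, and leaving out 1 array 0 to 6 (0.51% to 8.39% of all). The first 4 called 3.96%, 1.48%, 0.0268% and 0.156% of all probe sets. For both siRNAs as 1 group (0), 1 probe set per gene gave 1 (0.309% of all). The mean of the siRNA effects from the 3-group fit gave 6 (1378 of all 18625 probe sets, 7.4%, against 27 as reported). Leaving out 1 array gave 0 to 5, the 5 being without siRNA 2600 replicate 1 (7% of all). With the replicate number as a replicate block the counts were 6 for siRNA 3488, 2 for siRNA 2600, 8 between the siRNAs and 0 for both. With this block fewer of all 18625 probe sets were called than as reported for siRNA 3488 and for siRNA 2600. More of them were called between the siRNAs, and 0 of all 18625 for both siRNAs as 1 group. Over all 18625 probe sets, siRNA 3488 called 2911 (1283 higher and 1628 lower), against 1837 after quantile normalization, 1939 after cyclic loess, 591 with no intensity trend, and 2307 after median centring (1728 higher and 579 lower). Cyclic loess gave 8 calls of related probe sets with siRNA 3488 (15 as reported).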
